A study of Mus musculus with 3 samples.

Results

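The type 2 vomeronasal receptor genes (Vmn2r genes) are the genes whose identifiers carry a symbol starting with Vmn2r in the GENCODE M21 annotation of the mouse assembly GRCm38. Of the 30212 genes listed for each library, 180 are Vmn2r genes. They comprise 114 genes annotated as protein-coding, 60 as unprocessed pseudogenes and 6 of other pseudogene types. Whole-exome sequencing was performed on DNA of 3 recipient animals, with 1 library per animal and no replicate, to find genes whose allelic imbalance comes from loss of heterozygosity (LOH). What is measured is therefore the presence of both parental copies in the DNA of lymphocytes, and not the expression of these receptors.

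The polyclonal library E6.2 was made from 58000 sorted B220+IgM+ B cells of a recipient reconstituted with 50 hematopoietic stem cells (HSCs), taken from the spleen according to the labels and from the bone marrow according to the methods. The monoclonal libraries E6.43 and E15.10 were made from CD4+CD8- thymic T cells of recipients that had received 1 HSC each, 250000 cells for E6.43 and 177000 for E15.10. Donor animal 6 supplied both E6 recipients, and donor animal 15 supplied E15.10. All donors and recipients were female F1 animals between C57BL/6 (B6) and CAST/EiJ (CAST), the donors carrying the leukocyte marker Ly5.2 and the recipients Ly5.1 on the B6 side. Recipients were irradiated below the lethal dose and keep cells of their own, so some recipient cells may be left in a sort. Since the polyclonal library is of B cells and the monoclonal ones of T cells, clonality and cell type cannot be told apart.

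Vomeronasal receptors of type 2 are class C G protein-coupled receptors with a large extracellular domain. They are found on sensory neurons of the basal layer of the vomeronasal organ, where they detect peptide and protein pheromones. Vmn2r1 to Vmn2r7 form family C, whose members are broadly co-expressed with the other receptors, while most other members are expressed in small sets of neurons. The genes lie in tandem clusters that have expanded in rodents, and near-identical copies and pseudogenes are common among them.

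Allelic imbalance (AI) is the share of B6 counts among all allelic counts of a gene, summed over its SNPs between B6 and CAST, so that 0.5 is an equal number of counts and 1 only B6 counts. The methods of the study call the B6 allele maternal. A gene was taken as measured with at least 10 counts and as being in the LOH range with AI under 0.25 or over 0.75, which are the limits of those methods. Intervals given with AI are 95% Wilson intervals. They cover counting error only and are too narrow, since a read pair that covers several SNPs is counted at each. Where SNPs lie close together, the share said to be allowed by an absence of CAST counts is too low for the same reason.

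The sequences on which the extreme values rest are shown first, as the GRCm38 assembly (B6) gives them, on the plus strand, in lower case with the SNP base in capitals. The first pair shows members with the same B6 sequence over the whole window. The 101 bases around a SNP of the pseudogene Vmn2r-ps31 at chr6:123444022-123444122 are identical to those of Vmn2r-ps32 at chr6:123559369-123559469, with the SNP at the central base. Reads run beyond this window, and whether they tell the members apart was not tested. At that SNP AI was 0.0189 of 53 counts in Vmn2r-ps31 and 0.956 of 114 counts in Vmn2r-ps32 in E6.2.
Vmn2r-ps31: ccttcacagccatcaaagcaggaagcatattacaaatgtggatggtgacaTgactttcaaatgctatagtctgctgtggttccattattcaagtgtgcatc
Vmn2r-ps32: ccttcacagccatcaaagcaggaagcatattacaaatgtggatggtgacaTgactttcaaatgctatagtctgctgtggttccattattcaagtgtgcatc

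In other members a copy of the window differs from the B6 sequence of the member at the SNP itself. The copy shown matches all other bases of the window and is not always the nearest one. Positions are counted from 1 at the left end of the window. The window of Vmn2r7 at chr3:64690928-64691028 lies in coding sequence and differs from that of Vmn2r6 at chr3:64537829-64537929 by A51G.
Vmn2r7: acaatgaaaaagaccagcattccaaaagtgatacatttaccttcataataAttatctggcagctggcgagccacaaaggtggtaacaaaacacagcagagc
Vmn2r6: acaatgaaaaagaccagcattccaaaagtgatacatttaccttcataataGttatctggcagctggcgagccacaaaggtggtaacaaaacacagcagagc
A second coding window of Vmn2r7 at chr3:64715982-64716082 differs from that of Vmn2r2 at chr3:64134125-64134225 by G51C.
Vmn2r7: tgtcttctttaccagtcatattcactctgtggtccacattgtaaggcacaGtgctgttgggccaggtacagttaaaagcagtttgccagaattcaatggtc
Vmn2r2: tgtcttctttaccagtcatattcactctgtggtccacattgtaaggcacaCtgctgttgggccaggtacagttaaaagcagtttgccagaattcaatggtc
The coding window of Vmn2r38 at chr7:9085045-9085145 differs from that of Vmn2r29 at chr7:7234429-7234529 by T51C, and a shorter window of 51 bases around the same SNP was found at 20 other places on chromosome 7, at 19 of them with another base than in Vmn2r38.
Vmn2r38: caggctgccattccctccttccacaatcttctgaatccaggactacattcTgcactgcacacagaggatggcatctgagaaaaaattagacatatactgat
Vmn2r29: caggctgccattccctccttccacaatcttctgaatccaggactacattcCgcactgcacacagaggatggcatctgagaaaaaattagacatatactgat

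The last pair of sequences shows members whose SNPs are dense and are mostly found nowhere else. In the noncoding exon of the pseudogene Vmn2r-ps68, at chr7:85192726-85193018, no 51-base window was found at another place. In the coding sequence of Vmn2r112, at chr17:22618446-22618727, the windows of the SNPs at the first base and at chr17:22618632 have a copy in Vmn2r111 with another base. All SNPs of the stretch are in capitals.
Vmn2r-ps68: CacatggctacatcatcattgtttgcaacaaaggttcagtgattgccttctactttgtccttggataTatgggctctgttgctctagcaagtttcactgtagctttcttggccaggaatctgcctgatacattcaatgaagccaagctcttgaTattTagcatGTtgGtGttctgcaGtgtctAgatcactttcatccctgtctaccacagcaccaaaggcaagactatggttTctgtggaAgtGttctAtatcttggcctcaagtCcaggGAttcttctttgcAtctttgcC
Vmn2r112: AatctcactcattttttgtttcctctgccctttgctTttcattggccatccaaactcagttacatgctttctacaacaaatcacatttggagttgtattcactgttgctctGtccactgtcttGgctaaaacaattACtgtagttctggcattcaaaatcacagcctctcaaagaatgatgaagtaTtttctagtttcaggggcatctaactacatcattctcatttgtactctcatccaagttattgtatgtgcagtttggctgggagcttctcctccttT

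The 180 genes held 2260 SNPs, with a median of 8 per gene and a range from 1 to 134. Of the 2258 autosomal ones, 62% lay in coding sequence, 29.6% in noncoding exons and 7.75% in untranslated regions. Coding SNPs had a median density of 3.43 per kb over 113 protein-coding members, against 3.18 per kb over all autosomal protein-coding genes. Vmn2r101 had the highest density of all members, with 27.2 per kb. A sequence of 51 bases centred on the SNP occurred elsewhere in the assembly for 591 Vmn2r SNPs, or 26.2%, against 4.52% of all autosomal SNPs, 18.9% of SNPs in type 1 vomeronasal receptor (Vmn1r) genes and 14.6% in olfactory receptor (Olfr) genes. These 591 SNPs had 1643 such places, of which 85.0% were inside another annotated Vmn2r gene and 92.3% on the same chromosome, at a median distance of 329 kb. The base at the SNP differed at 832 of the places.

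The allelic counts of all genes summed to 19471576 in the B cells of E6.2, 13036005 in the T cells of E6.43 and 10863972 in the T cells of E15.10. The Vmn2r genes held 213782, 129722 and 37470 of them. A measured member had a median of 871.5 counts in the B cells of E6.2, 500 in the T cells of E6.43 and 156 in the T cells of E15.10, so AI of single members is known least well in the T cells of E15.10. In all 3 libraries 147 members were measured, 14 in 1 or 2 of them and 19 in none. No counts were found in any library for 11 members, all of which were pseudogenes. Of the protein-coding members 110 of 114 were measured in all 3 libraries, and of the unprocessed pseudogenes 31 of 60. The annotation lists Vmn2r-ps159 as protein-coding and Vmn2r125 as an unprocessed pseudogene, in spite of their symbols. Vmn2r121, the member on the X chromosome, had 1, 3 and 7 counts in the B cells of E6.2 and the T cells of E6.43 and E15.10 and was not measured.

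Most Vmn2r genes gave counts of both parental alleles, and AI at the extremes was seen in a minority of members, 9 of which were extreme in every library. Median AI was 0.524 in the B cells of E6.2 (order-statistic 95% interval 0.509 to 0.545, 160 genes), 0.527 in the T cells of E6.43 (0.505 to 0.544, 159 genes) and 0.534 in the T cells of E15.10 (0.5 to 0.558, 147 genes). Over all autosomal genes the medians were 0.537 or 0.538 in each library. In the LOH range were 16 of 160 measured members in the B cells of E6.2, or 10%, against 5.5% of all genes. The numbers were 19 of 159 in the T cells of E6.43, or 11.9% against 5.74%, and 20 of 147 in the T cells of E15.10, or 13.6% against 5.52%. The share in the LOH range thus lay above that of all genes in each library, without a test.

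Most of the extreme values were on the B6 side. AI was over 0.75 in 11, 12 and 14 members in the B cells of E6.2 and the T cells of E6.43 and E15.10 (all genes 3.11%, 3.19% and 3.7%), and under 0.25 in 5, 7 and 6 members (all genes 2.39%, 2.55% and 1.82%). The 5 low members of E6.2 were Vmn2r-ps31, Vmn2r21, Vmn2r41, Vmn2r-ps80 and Vmn2r112, of which all but the first were named after their values were seen. Protein-coding members were in the LOH range in 7.14%, 8.04% and 10% of cases, against 3.02%, 3.22% and 2.77% of all autosomal protein-coding genes. Members of other biotypes were so in 16.7%, 21.3% and 24.3%, of 48, 47 and 37 measured. The share over all genes of such biotypes is not given here, so no excess is read from these numbers. The shares of all members and of all genes mix biotypes, whose parts were not matched. The Vmn1r genes had shares of 13.5%, 12.3% and 16.4%, and the Olfr genes of 4.39%, 4.40% and 4.97%.

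**Figure D1:**
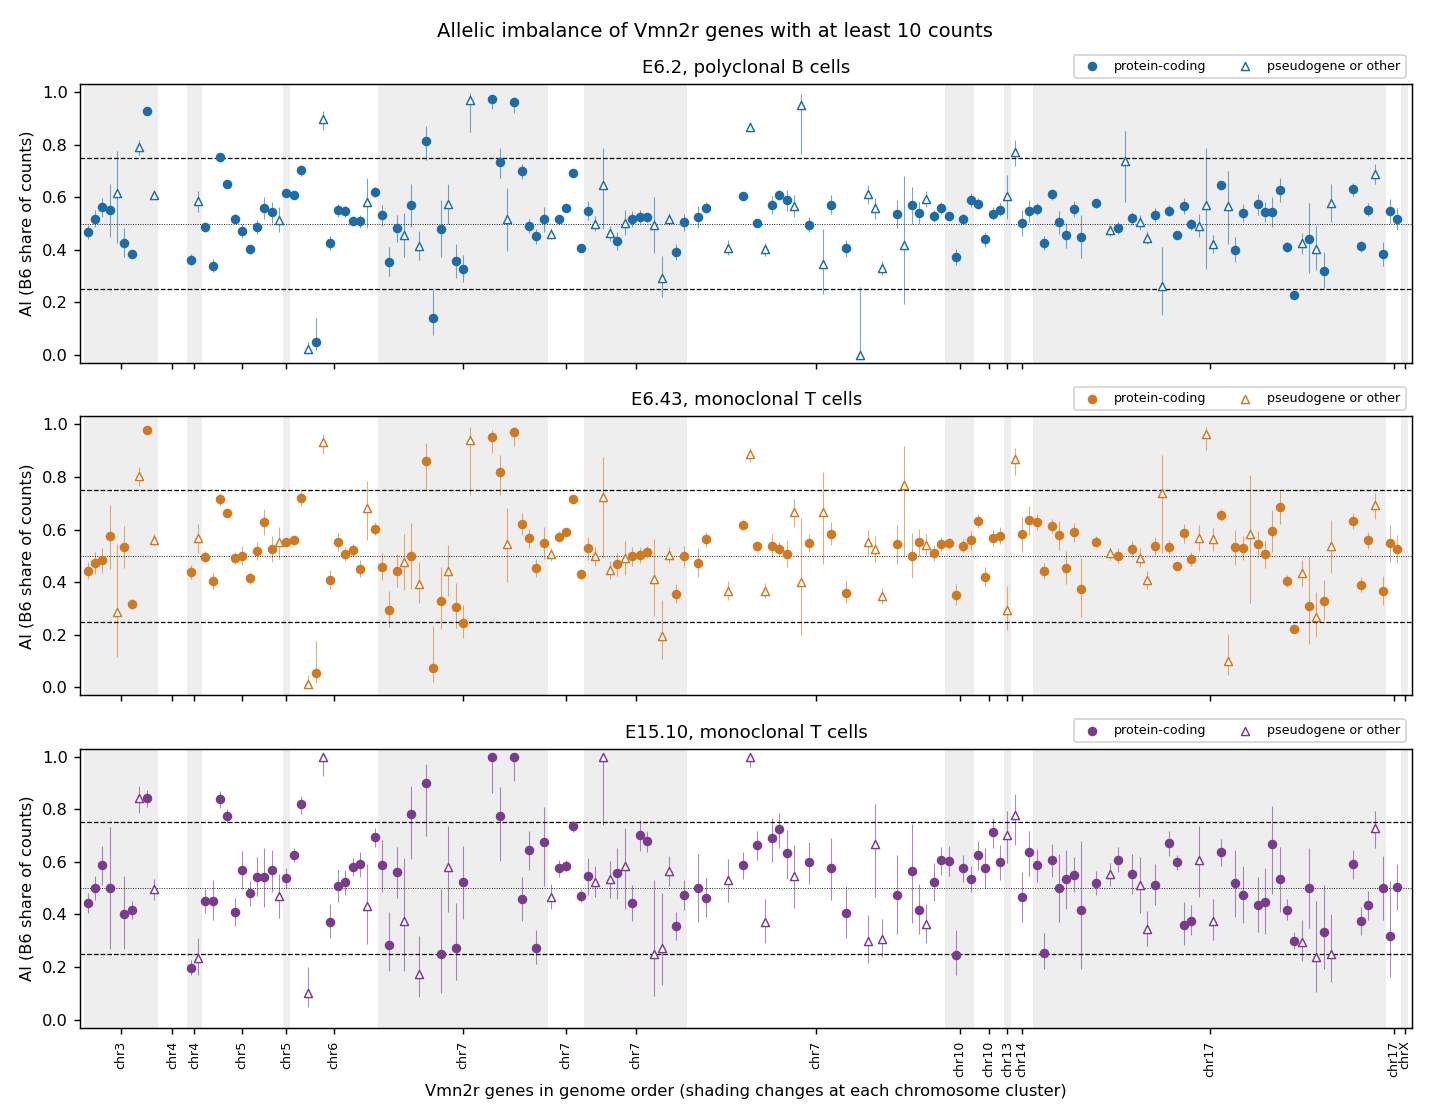
AI of each measured Vmn2r gene in genome order, with 95% Wilson intervals as bars, in the B cells of E6.2 and the T cells of E6.43 and E15.10 from top to bottom. Filled circles are protein-coding genes and open triangles other biotypes, and dashed lines mark AI of 0.25 and 0.75. Most genes lie near 0.5, and the same few genes on chromosomes 3, 6 and 7 lie near 0 or 1 in each library.

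Of the 147 members measured in all 3 libraries, 8 had AI over 0.75 in each library, or 5.44%, against 1.62% of all genes, and 1 had AI under 0.25 in each library, or 0.680%, against 0.68%. With the whole interval in the LOH range in each library there were 7 members, Vmn2r7, Vmn2r-ps11, Vmn2r-ps31, Vmn2r-ps32, Vmn2r38, Vmn2r48 and Vmn2r-ps68 (all genes 1.51%). At the other end, AI stayed between 0.4 and 0.6 in all 3 libraries in 60 of 147 members, or 40.8%. The share was 56.0% over all genes, 27.4% over Vmn1r genes and 50.3% over Olfr genes. AI between 0.25 and 0.75 in each library was found in 84.4% of members and 91.8% of all genes.

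The family C co-receptors Vmn2r1 to Vmn2r7 lie side by side on chromosome 3 between 64081547 and 64899762, in a cluster of 10 members. All 7 were measured in each library and 1 of them, Vmn2r7, was in the LOH range. Vmn2r7 had AI of 0.929 of 1801 counts in the B cells of E6.2 (0.916 to 0.940), 0.979 of 1225 counts in the T cells of E6.43 (0.969 to 0.986) and 0.843 of 530 counts in the T cells of E15.10 (0.810 to 0.872). Thus B6 counts were in large excess in each library, whether monoclonal or polyclonal. All 13 SNPs of Vmn2r7, which lie in coding sequence, were over 0.75 in both libraries of donor 6. At 5 neighbouring SNPs between chr3:64691111 and chr3:64691132 AI was 0.840 to 0.850 in the B cells of E6.2, 0.953 to 0.964 in the T cells of E6.43 and 0.706 to 0.712 in the T cells of E15.10, and it was near 1 at most others. The windows of Vmn2r7 shown above belong to SNPs at which AI was 1 in the B cells of E6.2, of 96 and 173 counts.

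Its neighbour Vmn2r6 deviated to the other side. AI of Vmn2r6 was 0.385 of 3707 counts in the B cells of E6.2 (0.369 to 0.401), 0.318 of 2222 counts in the T cells of E6.43 (0.299 to 0.337) and 0.415 of 797 counts in the T cells of E15.10 (0.382 to 0.4498). All of its 11 SNPs were under 0.5 in each library. Vmn2r6 and Vmn2r7 share 5 windows of 101 bases, and summed over both genes AI was 0.563, 0.553 and 0.586. With the other partners of Vmn2r7, which share 1 window each, the sum was higher, at 0.794, 0.816 and 0.682 with Vmn2r2 and at 0.884, 0.931 and 0.843 with Vmn2r-ps11. The genes within 1 Mb of the cluster that are not members had summed AI of 0.535, 0.541 and 0.549.

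The other co-receptors were near balance in each library. AI in the B cells of E6.2 and the T cells of E6.43 and E15.10 was 0.469, 0.444 and 0.444 in Vmn2r1, 0.518, 0.473 and 0.499 in Vmn2r2, and 0.562, 0.482 and 0.589 in Vmn2r3. It was 0.551, 0.576 and 0.5 in Vmn2r4 and 0.426, 0.535 and 0.4 in Vmn2r5, which rest on 1 SNP each and on 14 and 45 counts in the T cells of E15.10. The pseudogene Vmn2r-ps11, between Vmn2r6 and Vmn2r7, had AI of 0.790 of 861 counts, 0.803 of 461 and 0.843 of 191.

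**Figure D2:**
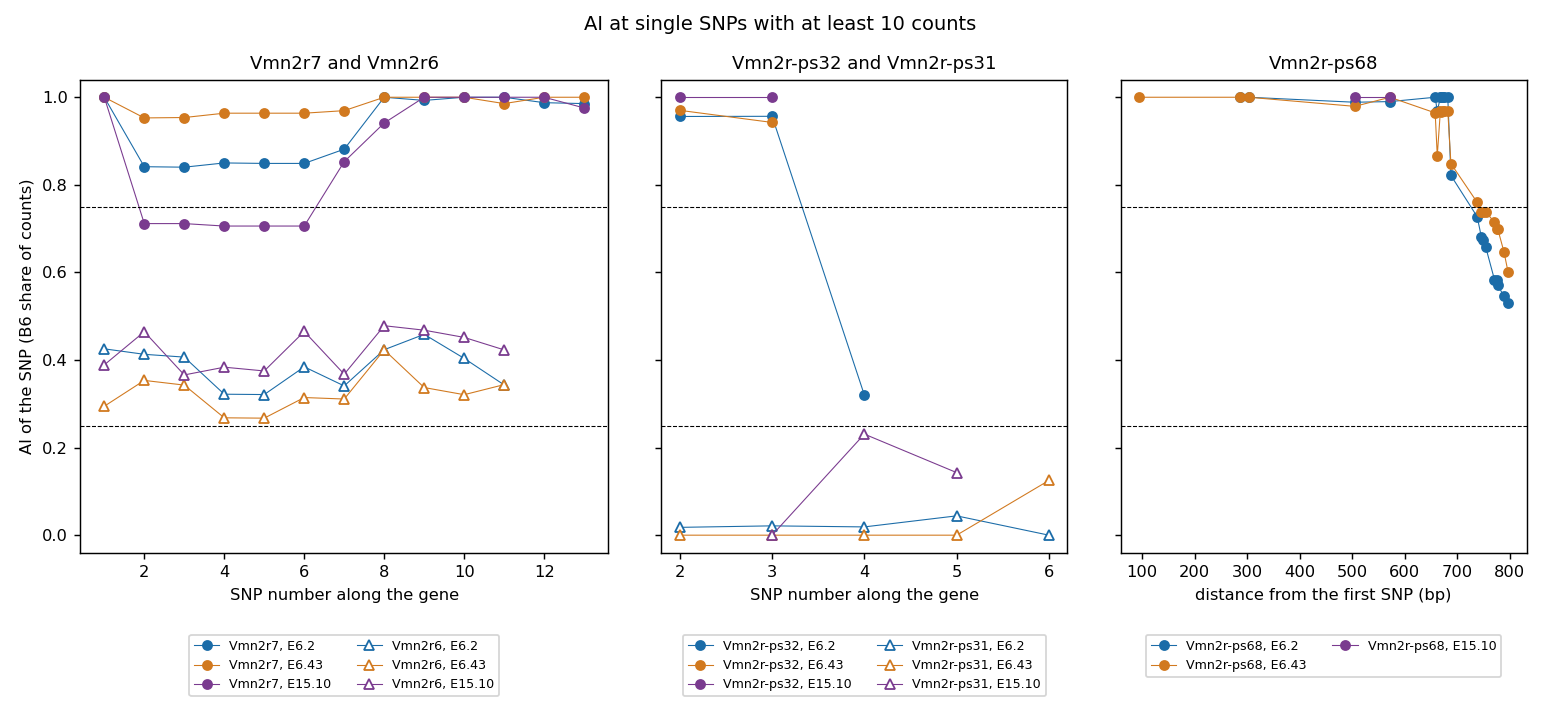
AI of single SNPs with at least 10 counts in Vmn2r7 and Vmn2r6 (left), Vmn2r-ps32 and Vmn2r-ps31 (middle), by SNP number along the gene, and Vmn2r-ps68 (right), by distance from its first SNP in bp, in the B cells of E6.2 and the T cells of E6.43 and E15.10. Vmn2r7 lies above 0.7 and Vmn2r6 below 0.5 at every SNP, Vmn2r-ps31 lies below 0.25 at every SNP, and AI of Vmn2r-ps68 goes from near 1 to 0.531 in E6.2 over its last SNPs.

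Members with known ligands were balanced or nearly so. AI of Vmn2r26 (V2r1b), a receptor for peptides of the kind bound by major histocompatibility molecules, was 0.508 of 1665 counts, 0.451 of 895 and 0.590 of 417. Vmn2r116 (V2Rp5), the receptor of the male tear peptide ESP1, had AI of 0.552 of 1637 counts, 0.559 of 867 and 0.434 of 311. AI of Vmn2r88, a receptor for haemoglobin, was 0.501 of 383 counts, 0.584 of 209 and 0.465 of 99. Vmn2r53 had AI of 0.516, 0.573 and 0.575 of 3882, 2330 and 892 counts. None of these 4 genes was in the LOH range in any library.

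The most extreme members outside chromosome 3 were on chromosomes 6 and 7. The pseudogenes Vmn2r-ps31 and Vmn2r-ps32 were at opposite ends. AI of Vmn2r-ps31 was 0.0242 of 248 counts in the B cells of E6.2, 0.0138 of 145 in the T cells of E6.43 and 0.1 of 60 in the T cells of E15.10. AI of Vmn2r-ps32 was 0.897 of 262 counts, 0.934 of 166 and 1 of 47, where 0 of 47 CAST counts allow a share of up to 6.38% if all counts are independent. The pair shares 10 windows of 101 bases, and the summed AI of both was 0.473 (0.430 to 0.516), 0.505 (0.4495 to 0.560) and 0.495 (0.402 to 0.589), so the counts of both together were balanced.

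On chromosome 7, AI of Vmn2r38 was 0.973 of 150 counts, 0.951 of 103 and 1 of 24, and AI of Vmn2r48 was 0.962 of 159 counts, 0.971 of 103 and 1 of 37. In E15.10 the absence of CAST counts allows a share of up to 12.5% in Vmn2r38 and 8.11% in Vmn2r48. The limit for Vmn2r48 is too low, as its SNPs lie close together and share reads. Both are receptors of the cluster between 5477255 and 10176573, and every one of their 2 and 3 SNPs has its window at other places. Vmn2r38 shares windows of 101 bases with 5 other members. Summed over each of these pairs, AI ran from 0.543 to 0.840 in the B cells of E6.2, from 0.5401 to 0.830 in the T cells of E6.43 and from 0.484 to 0.871 in the T cells of E15.10. With Vmn2r-ps37, the partner that shares most windows, it was 0.601, 0.624 and 0.484, and with Vmn2r29, shown above, it was 0.571, 0.5401 and 0.488. Vmn2r48 also has 5 partners, and the summed AI ran from 0.509 to 0.9503, from 0.509 to 0.971 and from 0.395 to 1. The partners that share most windows with it are Vmn2r-ps36 and Vmn2r40. The sum was 0.729, 0.754 and 0.811 with Vmn2r-ps36 and 0.9503, 0.971 and 1 with Vmn2r40. Vmn2r40 had only 2, 0 and 0 counts, so its sum is hardly more than AI of Vmn2r48 alone. The sum was nearest to 0.5 with Vmn2r51, which has 1253 of the 1412 counts of that pair in E6.2. The sum of a pair was thus near balance with some partners and far from it with others, and rests mostly on the gene with more counts. Vmn2r36, of the same cluster and chosen after its values were seen, had AI of 0.814 of 140 counts, 0.862 of 58 and 0.9 of 20.

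Shared windows were found as well in members with AI between the limits. Of all members, 99 shared a window of 101 bases with another member, in 125 pairs, and in 115 pairs both genes were measured in E6.2. In 25 of the 115 pairs 1 or both genes were in the LOH range, the summed AI was in the LOH range in 6 of the 25, and the genes lay on opposite sides of 0.5 in 15. Of the 16 members in the LOH range in the B cells of E6.2, 11 were in such pairs, against 94 of the 160 measured members, and 2 had no SNP window elsewhere, against 34 of 160. Of their SNPs, 19.5% in the B cells of E6.2, 29.5% in the T cells of E6.43 and 29.1% in the T cells of E15.10 had a window elsewhere, against 27.1%, 25.98% and 26.9% in the other measured members. This comparison turns on 1 member of many SNPs. Without Vmn2r10, which holds 134 SNPs and is named after its values were seen, the shares in the LOH range were 37.0% in the B cells of E6.2 and 45.4% in the T cells of E15.10, and without Vmn2r-ps68, the member with most SNPs there, 35.9% in the T cells of E6.43. The largest member was taken out of the LOH range only and not out of the other members, where Vmn2r10 stayed in E6.43. These shares are thus not a like comparison, and no excess of copies is read from them. AI of Vmn2r10 was 0.752, 0.715 and 0.839, close to the limit in both libraries of donor 6. The part of copies in the extreme values was not tested.

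Vmn2r-ps68 is an extreme member with no copy of any SNP window. It lies on chromosome 7 between 85192197 and 85193057 and has 31 SNPs. AI was 0.868 of 1105 counts in the B cells of E6.2 (0.847 to 0.887), 0.886 of 613 in the T cells of E6.43 (0.858 to 0.909) and 1 of 95 in the T cells of E15.10, where no CAST count allows a share of up to 3.16% if all counts are independent. They are not, as the SNPs from chr7:85192879 to chr7:85192909 had 5 counts each in E15.10 and share reads. The limit of 3.16% is therefore too low. Along the stretch printed above AI was uneven. In the B cells of E6.2 it was 0.989 at the first SNP, at least 0.968 up to chr7:85192903 and 0.821 at chr7:85192909, and from there it fell or stayed equal from SNP to SNP, down to 0.531 of 32 counts at the last. In the T cells of E6.43 the last SNP had 0.6 of 15 counts. In the T cells of E15.10 every SNP with counts had B6 counts alone, with 5 or fewer counts per SNP from chr7:85192879 on.

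Vmn2r112 deviated to the CAST side with many counts and is named after its values were seen. AI was 0.227 of 4045 counts in the B cells of E6.2 (0.214 to 0.240), 0.222 of 2606 in the T cells of E6.43 (0.206 to 0.238) and 0.3 of 740 in the T cells of E15.10 (0.268 to 0.334). All 18 of its SNPs were under 0.5 in the B cells of E6.2, from 0.143 to 0.412, and 9 of them were under 0.25. It shares windows with 3 members, and summed over each pair AI lay between 0.288 and 0.321 in the B cells of E6.2, between 0.274 and 0.306 in the T cells of E6.43 and between 0.322 and 0.351 in the T cells of E15.10.

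The 5 members with most counts were not in the LOH range in either library of donor 6. AI in the B cells of E6.2 and the T cells of E6.43 and E15.10 was 0.560, 0.590 and 0.586 in Vmn2r54, 0.458, 0.461 and 0.597 in Vmn2r101, and 0.651, 0.661 and 0.775 in Vmn2r11. It was 0.690, 0.717 and 0.735 in Vmn2r55 and 0.616, 0.552 and 0.538 in Vmn2r18. These genes had 4892 to 8899 counts in the B cells of E6.2 and 671 to 2406 in the T cells of E15.10. AI near 0.5 did not mean that the SNPs of a gene were alike. In Vmn2r101, 15 of 69 SNPs with at least 20 counts in the B cells of E6.2 were over 0.75 and the lowest was 0.287. In Vmn2r11, 37 of 65 were over 0.75 in the B cells of E6.2 and 35 of 63 in the T cells of E6.43, with the lowest at 0.328 and 0.294.

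Over all members, single SNPs with at least 20 counts were more often high than those of other genes. AI was over 0.75 at 12.9%, 12.4% and 10.61% of 1670, 1521 and 603 Vmn2r SNPs in the B cells of E6.2 and the T cells of E6.43 and E15.10, against 4.50%, 4.93% and 4.69% of autosomal SNPs. It was under 0.25 at 3.59%, 4.01% and 5.80%, against 1.85%, 1.90% and 1.08%. SNPs over 0.75 made up 7.08%, 9.26% and 13.1% in Vmn1r genes, the last above the share in Vmn2r genes, and 4.73%, 5.24% and 6.68% in Olfr genes. High SNPs were not spread evenly over the members, as Vmn2r11 and Vmn2r101 above show. SNPs of a gene share reads, so these shares carry no test. In the B cells of E6.2 the share of high SNPs was 12.7% where the window occurred nowhere else and 13.4% where it did, and that of low SNPs was 2.28% and 6.44%. Of 151 members with such a SNP in the B cells of E6.2, 56 had at least 1 extreme SNP, and 42 of these 56 had AI between 0.25 and 0.75. High and low SNPs occurred together in 5 members, Vmn2r-ps13, Vmn2r125, Vmn2r50, Vmn2r62 and Vmn2r113, of which Vmn2r50, Vmn2r62 and Vmn2r113 were named after their values were seen.

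Most extreme SNPs of E6.2 were also extreme in the T cells of the same donor. Of 177 SNPs over 0.75 in the B cells of E6.2 among 1519 with at least 20 counts in both libraries of donor 6, 141 were over 0.75 in the T cells of E6.43, and of 43 under 0.25, 33 were so in the T cells of E6.43. In all 3 libraries 603 SNPs of 108 members had at least 20 counts. Of these, 474 were between the limits in each library, 31 were high in each and 13 low in each. Of the 129 SNPs that were extreme in at least 1 library, 44 were so in all 3 and 63 in 1 library alone. Those of E15.10 were shared least, as 42 of its 99 extreme SNPs were extreme in no other library, against 18 of 77 in the T cells of E6.43 and 3 of 63 in the B cells of E6.2. E15.10 also had the fewest counts, with a mean per Vmn2r SNP of 16.59, against 57.45 in E6.43 and 94.68 in E6.2. The part of depth was not tested. The same overlaps over all autosomal SNPs are not given here, so these numbers are no result about the members.

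Seen by chromosome, the members fell into 17 clusters, taken as runs of Vmn2r genes with no gap over 2 Mb. The largest holds 48 members on chromosome 17 between 17703747 and 23479699, and the next 35 on chromosome 7 between 84810387 and 87044941. Of the 17 clusters, 14 had at least 100 counts in each library. Summed AI over these lay between 0.410 and 0.616 in the B cells of E6.2, between 0.464 and 0.676 in the T cells of E6.43 and between 0.202 and 0.634 in the T cells of E15.10. Outside 0.45 to 0.6 were 2, 1 and 5 clusters. In the B cells of E6.2 they were the cluster on chromosome 4 at 156331103 and Vmn2r18 alone on chromosome 5, and in the T cells of E6.43 the cluster on chromosome 14. A cluster of 4 pseudogenes on chromosome 4, from Vmn2r-ps17 to Vmn2r-ps19, had 0, 2 and 0 counts.

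The chromosome 17 cluster was close to balance in each library. Summed AI was 0.492 of 55424 counts in the B cells of E6.2 (0.488 to 0.496), 0.494 of 34204 in the T cells of E6.43 (0.489 to 0.4997) and 0.499 of 8370 in the T cells of E15.10 (0.488 to 0.509). The 47 other genes within 1 Mb had 0.536, 0.531 and 0.537, which lie outside these intervals. Within the cluster AI of single members ranged from 0.227 to 0.737 in the B cells of E6.2, the former being Vmn2r112. On chromosome 14, AI of Vmn2r-ps111, Vmn2r88 and Vmn2r89 together was 0.587, 0.676 and 0.610, where Vmn2r-ps111 had 0.772 of 281 counts, 0.867 of 158 and 0.776 of 67. The 4 members from Vmn2r84 to Vmn2r87 on chromosome 10 had 0.534 of 6377 counts, 0.563 of 3872 and 0.634 of 882.

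**Figure D3:**
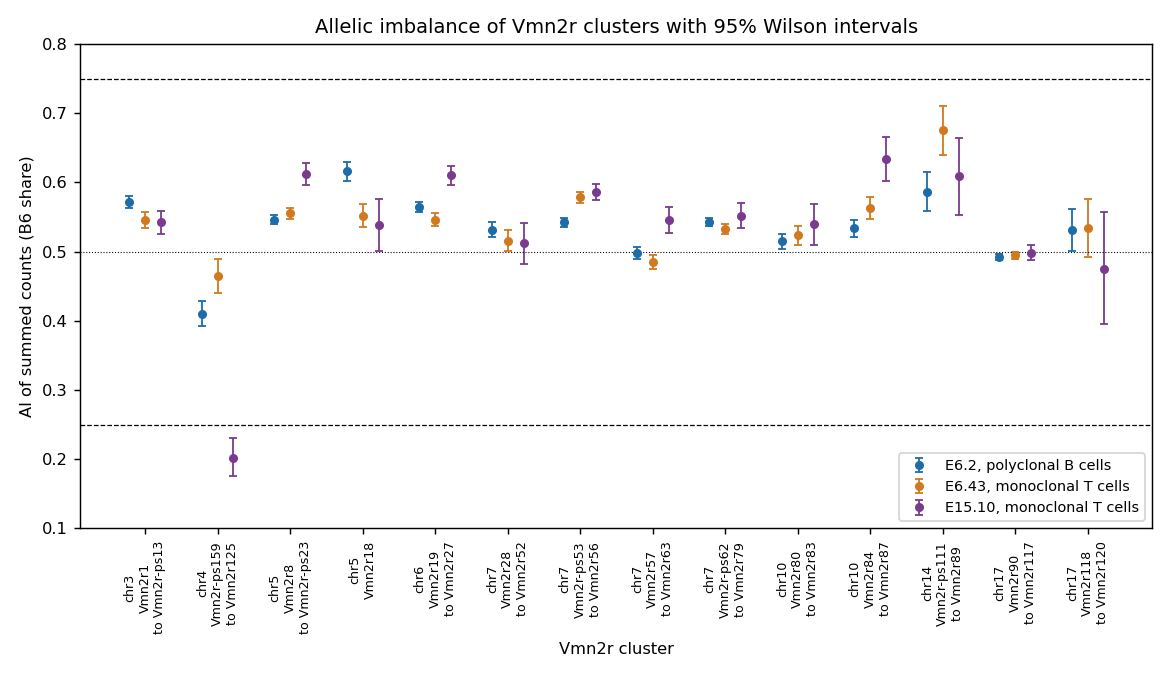
AI of the summed counts of the 14 Vmn2r clusters with at least 100 counts in each library, named by chromosome and by first and last gene. Points are E6.2, E6.43 and E15.10, bars are 95% Wilson intervals, and dashed lines mark 0.25 and 0.75. The chromosome 4 cluster of E15.10, at 0.202, is the one point in the LOH range.

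Of the 14 clusters with at least 100 counts in each library, the one on chromosome 4 between 156331103 and 156355905 differed most between libraries. It holds Vmn2r-ps159 and Vmn2r125, which share windows with each other and with contigs not placed on a chromosome. Summed AI was 0.410 of 2700 counts in the B cells of E6.2 (0.392 to 0.429), 0.464 of 1587 in the T cells of E6.43 (0.440 to 0.489) and 0.202 of 831 in the T cells of E15.10 (0.176 to 0.231). The 53 other genes within 1 Mb stayed at 0.530, 0.541 and 0.552, so the low value of E15.10 did not extend to its surroundings. AI of Vmn2r-ps159 was 0.363 of 2123 counts, 0.439 of 1273 and 0.196 of 694, and AI of Vmn2r125 was 0.584 of 577 counts, 0.567 of 314 and 0.234 of 137. In both genes E15.10 was below the other libraries. Within Vmn2r125 AI was uneven. At its first SNP it was 0.809 of 110 counts in the B cells of E6.2 and 0.5455 of 11 in the T cells of E15.10. At the last it was 0 of 24 and 0 of 11. The counts were thus spread differently over the SNPs in each library, which bears on AI of the whole gene. The part of this in the difference was not tested. Fisher's exact test gave an adjusted p of 3.45e-15 for Vmn2r-ps159 and 5.76e-12 for Vmn2r125 between E15.10 and E6.2, and of 3.17e-26 and 3.19e-09 between E6.43 and E15.10. The test treats every SNP count as independent although neighbouring SNPs share reads, so these p-values are too small.

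AI of each gene was compared between libraries by a two-sided Fisher's exact test on B6 and CAST counts, adjusted over all autosomal genes measured in both. This compares the reads of 2 libraries and not monoclonal with polyclonal animals, and the 3 comparisons share libraries. Between E6.43 and E6.2, which have the same donor, 24 of 158 members passed an adjusted p of 0.05, or 15.2%, against 13.8% of all genes, 14 being higher and 10 lower in the T cells of E6.43. Between E15.10 and E6.2, 43 of 147 passed, or 29.3%, against 18.8%, with 25 higher and 18 lower in the T cells of E15.10. Between E6.43 and E15.10, 41 of 147 passed, or 27.9%, against 18.7%, with 17 higher and 24 lower in the T cells of E6.43. Members stood near the share of all genes within donor 6 and above it in the comparisons with E15.10.

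These calls treat every SNP count as independent. With SNPs at least 300 bp apart, which kept as little as 51.01% of the counts of a library, 0, 11 and 8 members passed in the same order, or 0%, 7.69% and 5.59%, against 0.664%, 4.75% and 4.77% of all genes. The excess over all genes was then small for E6.43 against E15.10. At an unadjusted p under 0.05 there were 17, 28 and 30 members. With counts reduced for overdispersion no member passed in any comparison, with 4, 1 and 2 at an unadjusted p under 0.05. Of all genes 0%, 0.201% and 0.270% then passed. Most differences were small. Among members with at least 50 counts in both, the median difference in size was 0.0289 between E6.43 and E6.2 (143 genes), 0.0708 between E15.10 and E6.2 (116 genes) and 0.0659 between E6.43 and E15.10 (116 genes), against 0.0377, 0.0441 and 0.0469 over all genes.

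**Figure D4:**
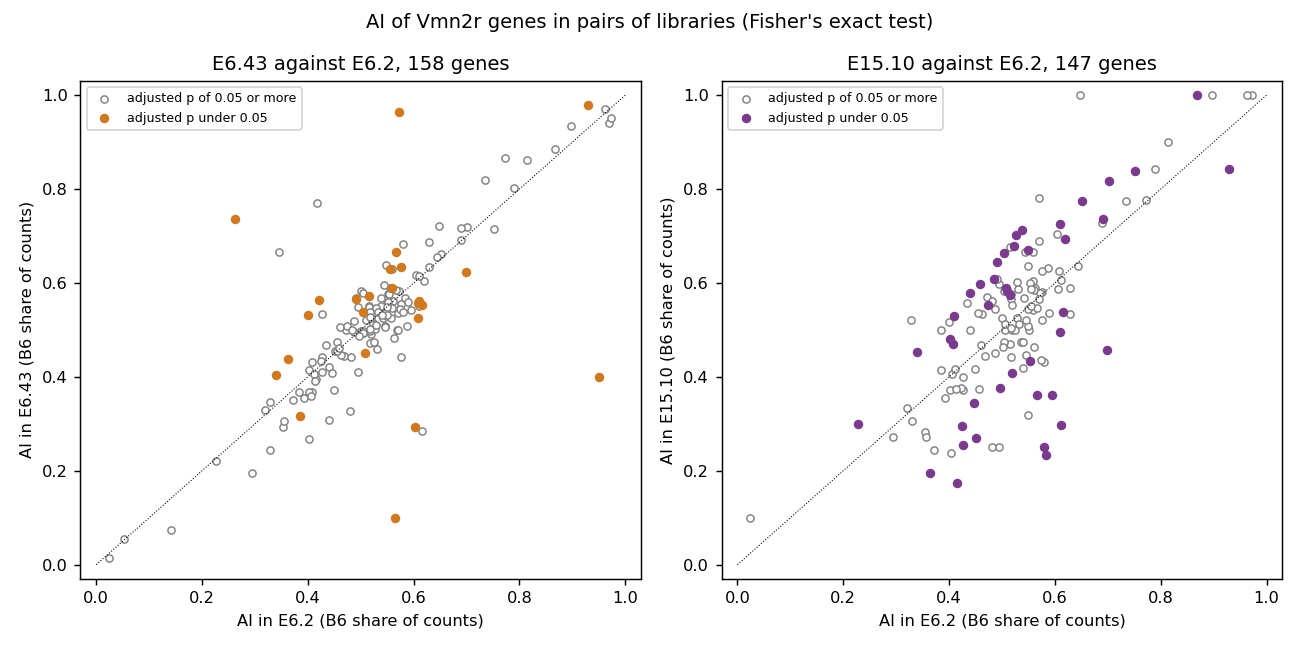
AI of each Vmn2r gene in E6.43 (left, 158 genes) and E15.10 (right, 147 genes) against AI in E6.2. Filled points passed Fisher's exact test at an adjusted p of 0.05, and the dotted line marks equal AI. Points lie closer to the line on the left than on the right, and E6.2 is on the horizontal axis of both panels.

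Differences of at least 0.2 that passed the test were found in 5, 7 and 8 members, or 3.16%, 4.76% and 5.44%, against 1.81%, 4.14% and 4.64% of all genes, so that the comparisons with E15.10 stood near the share of all genes. The 5 between E6.43 and E6.2 were the pseudogenes Vmn2r-ps73, Vmn2r-ps94, Vmn2r-ps121, Vmn2r-ps124 and Vmn2r-ps126, all of which but Vmn2r-ps94 had under 50 counts in 1 of these libraries and were named after their values were seen. Vmn2r-ps94, alone on chromosome 13, had AI of 0.603 of 131 counts in the B cells of E6.2, 0.294 of 109 in the T cells of E6.43 and 0.704 of 81 in the T cells of E15.10. E6.43 stood below the others, with an adjusted p of 1.16e-04 by Fisher's exact test against E6.2 and 7.95e-07 against E15.10, while E15.10 and E6.2 gave 0.336. None of its 41 SNPs has a window elsewhere. Neighbouring SNPs share reads, so these p-values are too small. At chr13:33767782, the SNP with most counts in E6.2, AI was 0.5 of 22 counts, 0.25 of 16 and 0.75 of 8. With SNPs at least 300 bp apart or with counts reduced for overdispersion, 0 members passed between E6.43 and E6.2.

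In most of the other members named for their differences E15.10 stood apart from the libraries of donor 6. These members were chosen for the largest differences that passed the test in any pair. That they differ and pass is therefore no result, and E15.10 had the fewest counts. AI in the B cells of E6.2 and the T cells of E6.43 and E15.10 was 0.611, 0.551 and 0.298 in Vmn2r-ps81, 0.699, 0.623 and 0.457 in Vmn2r49, and 0.595, 0.543 and 0.362 in Vmn2r-ps87. It was 0.567, 0.586 and 0.361 in Vmn2r102 and 0.426, 0.443 and 0.255 in Vmn2r124. In these genes AI was lower in the T cells of E15.10 than in both others. It was higher in Vmn2r60, with 0.526, 0.503 and 0.702, and in Vmn2r70, with 0.609, 0.526 and 0.725. The counts in the T cells of E15.10 were 94 to 228 in these 7 genes, and adjusted p by Fisher's exact test against E6.2 lay between 5.61e-07 and 0.0189. With counts reduced for overdispersion none of them passed.

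The number of counts on Vmn2r genes differed between libraries far more than AI did. Per 10000 autosomal allelic counts, 113 fell on Vmn2r genes in the B cells of E6.2, 102 in the T cells of E6.43 and 35.3 in the T cells of E15.10. Relative to E6.2 the share was 0.905 in the T cells of E6.43 and 0.312 in the T cells of E15.10. For Vmn1r genes these ratios were 0.927 and 0.468, and for Olfr genes 0.933 and 0.462. E15.10 was thus low in counts at all 3 receptor families. Of 150 members with at least 50 counts in the B cells of E6.2, 137 had a ratio under 0.5 in the T cells of E15.10, or 91.3%, against 21.7% of autosomal genes. The median ratio per gene was 0.262, with 0.942 over autosomal genes. The ratio was lowest in Vmn2r-ps82, with 604 counts in the B cells of E6.2 and 24 in the T cells of E15.10, where it was 0.0707. It was highest in Vmn2r113, at 1.35 with 50 and 38 counts. Vmn2r1 and Vmn2r2 were among the highest, at 0.812 and 0.938.

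Base composition moved with this ratio. Median GC content around Vmn2r SNPs was 39.7% over 151 bp and 38.2% over 100 kb, against 48.3% and 44.4% for all autosomal SNPs. Other autosomal SNPs of the same GC content over 151 bp had a ratio of 0.681 between E15.10 and E6.2, and those of the same GC content over 100 kb had 0.363. Relative to such SNPs the ratio of the members was 0.458 and 0.859, and with both windows matched it was 0.895. In the T cells of E6.43 the corresponding values were 0.946, 0.979 and 0.989. Other SNPs in regions as poor in GC thus had a ratio in the T cells of E15.10 almost as low as the members had. The gap was uneven over the range. Over 100 kb the ratio was 0.165 in members and 0.263 in other SNPs at 36 to 37% GC, and 0.207 and 0.208 at 35 to 36%. The cause was not tested. Mean counts per Vmn2r SNP were 94.7, 57.5 and 16.6.

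**Figure D5:**
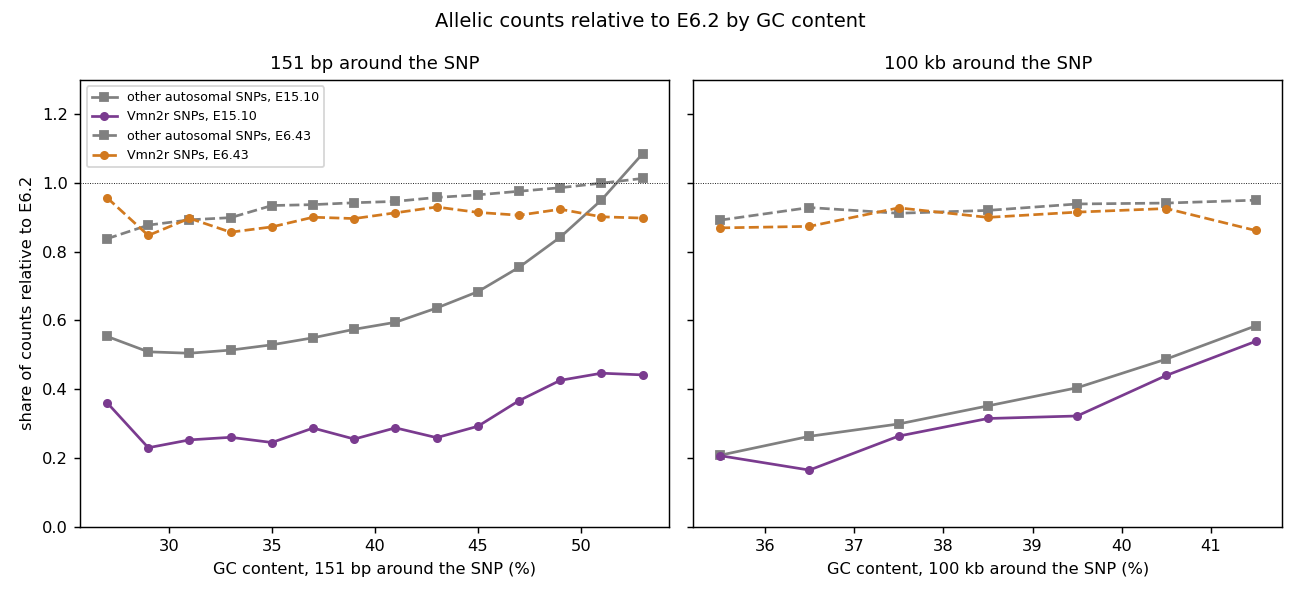
Share of allelic counts relative to E6.2 (vertical axis, ratio) by GC content in percent over 151 bp (left) and 100 kb (right) around the SNP. Solid lines are E15.10 and dashed lines E6.43, in colour for Vmn2r SNPs and in grey with squares for other autosomal SNPs. In E15.10 the members lie well below other SNPs on the left and closer to them on the right.

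Lists of genes that act with these receptors are short, and read against 5.5%, 5.74% and 5.52% of all genes in the LOH range a count of 0 in them is no result. Of 8 genes for signalling in the receptor neurons 7 were listed and 6 measured, and none was in the LOH range in any library. They include Gnao1, the G protein subunit of these neurons, with AI of 0.524, 0.527 and 0.501, and Itpr3, with 0.510, 0.549 and 0.521. The H2-Mv genes, nonclassical histocompatibility genes expressed beside the receptors, had 5 of 9 listed and 0 in the LOH range. Neither was any of 19 other class C receptors, such as Tas1r1 at 0.581, 0.590 and 0.573. Of 37 ligand genes, 25 were listed and 18, 18 and 17 measured, of which 5, 6 and 3 were in the LOH range, or 27.8%, 33.3% and 17.6%. These are major urinary protein (Mup) genes, another tandem family. AI of Mup11 was 0.947 of 640 counts, 0.922 of 295 and 0.961 of 153, and AI of Mup18, with most counts of the list, was 0.627, 0.601 and 0.664.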

How the data were processed

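DNA of 3 sorted lymphocyte samples was captured with the Agilent SureSelect Mouse All ExonV6 kit from fragments of 180 to 280 bp and read as 150 bp pairs. The authors deposited counts of reads of the B6 and the CAST allele for each gene, the sum over its SNPs, with the position and counts of each SNP, made with the ASEReadCounter* pipeline on GRCm38. Another kind of deposited value, the number of SNPs per gene, was used as given. The submitters' processing notes list cutadapt 1.14, Trim Galore, STAR 2.5.4a, SAMtools and GATK. Unique alignment to B6 and imputed CAST genomes, and Ensembl release 68 gene models without regions shared by several genes, are stated for RNA reads, and handling of duplicates is not given in the sources used here. Reads that match several copies may be lost or placed in the wrong copy, which can shift AI in either direction. A deposited table of the whole series with the authors' intervals, p-values and calls was not used. Columns used that belong to no library numbered 0.

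Symbols, biotypes and positions came from GENCODE M21, in which 29309 of 30212 listed genes were found, and sequences from the GRCm38.p6 assembly of RefSeq. Windows of 51 and 101 bases around each SNP were searched on both strands of the whole assembly, leaving out the SNP base. AI, Wilson intervals, medians and Fisher's exact tests with Benjamini-Hochberg adjustment over all autosomal genes were computed with Python 3.11.15, SciPy 1.17.1 and pandas 2.3.3. In simulated counts of the 21910 genes of E15.10 against E6.2, the test recovered 84 of 100 genes with an AI difference of 0.2 and 99 of 100 with 0.4, and called 8 unchanged genes. The simulated counts were independent, without shared reads or overdispersion. They therefore do not measure how often the test calls unchanged genes in the real counts. Libraries were treated singly, as there are no replicates, and samples were grouped by their titles.

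Named were the 5 members with most counts, up to 15 with intervals in the LOH range in all 3 libraries, up to 10 with the largest called differences at 50 or more counts in both libraries, those with AI of 0 or 1 from at least 50 counts, the first and last gene of each cluster, and Vmn2r1 to Vmn2r7, Vmn2r26, Vmn2r53, Vmn2r88 and Vmn2r116 for their roles. Members and lists were chosen with earlier results of these data known. Alternatives were other count minimums and limits, protein-coding genes alone, SNPs at least 300 bp apart, overdispersion, cluster medians and a gap of 1 Mb. The use of SNPs with no other place in the assembly and the comparisons of shares of counts, with GC content, were chosen after the data were seen.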

Additional observations from a re-analysis of the deposited data

How the results depend on the processing

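No paired analysis was possible because each group has 1 library and the groups share fewer than 2 replicate numbers, and for the same reason no library could be left out. Median AI kept its value within its interval under every alternative run. In the LOH range were 8, 9 and 11 members in the B cells of E6.2 and the T cells of E6.43 and E15.10 with protein-coding genes alone. These are 7.14%, 8.04% and 10%, against 3.02%, 3.22% and 2.77% of all autosomal protein-coding genes. With limits of 0.1 and 0.9 there were 8, 9 and 5. With at least 90 counts E6.43 had 11 and E15.10 had 9, with at least 50 counts E15.10 had 11, and with limits of 0.3 and 0.7 there were 36 in E15.10. For these other limits and count minimums the share of all genes is not given here, so the numbers cannot be read against it. Clusters outside 0.45 to 0.6 numbered 1, 2 and 2 with SNPs at least 300 bp apart. In E6.2 they numbered 1 by the median of genes and 1 with SNPs found at no other place, and in E6.43 they numbered 2 with protein-coding genes, with a gap of 1 Mb, or with SNPs found at no other place. AI of single clusters moved by at most 0.0679 with SNPs at least 300 bp apart, 0.0507 with at least 90 counts, 0.0613 with protein-coding genes and 0.069 by the median of genes.

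By Fisher's exact test 0, 11 and 8 members differed, with the donor 6 pair first, E15.10 against the B cells next and the T cell pair last, with SNPs at least 300 bp apart, where 17, 28 and 30 had an unadjusted p under 0.05. The 0, 11 and 8 are 0%, 7.69% and 5.59% of members, against 0.664%, 4.75% and 4.77% of all genes. With counts shrunk by overdispersion 0, 0 and 0 members differed (4, 1 and 2 unadjusted), against 0%, 0.201% and 0.270% of all genes. With a difference of at least 0.2 they numbered 5, 7 and 8, or 3.16%, 4.76% and 5.44%, against 1.81%, 4.14% and 4.64% of all genes. Without SNPs found at another place, 28 of 124 members differed for E15.10 against E6.2, or 22.6%, against 17.3% of all genes. The share of counts of E15.10 relative to E6.2 was 0.262 by the median of genes, 0.296 with SNPs found at no other place, 0.320 with SNPs at least 300 bp apart, 0.458 relative to SNPs of the same GC content over 151 bp and 0.895 with both windows matched. For E6.43 it was 0.8945 by the median of genes, 0.8997 with protein-coding genes, 0.912 with SNPs found at no other place, and 0.946 and 0.9885 relative to SNPs of the same GC content. The cause was not tested for any of these shifts. Depth limits E15.10 most, where the median member had 156 counts.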
